A study of Mus musculus with 6 samples.

Results

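Proneural and intermediate progenitor factors are the transcription factors that move a cortical progenitor from self-renewal to the neuronal fate. The 9 genes described here, Neurog1, Neurog2, Insm1, Eomes, Hes6, Neurod4, Neurod1, Neurod2 and Neurod6, were chosen by name from the 53379 genes of the count table. They were measured by bulk RNA sequencing in cortex at postnatal day 0, in 3 libraries from Npas3+/- mice, which carry 1 disrupted copy of the bHLH-PAS transcription factor gene Npas3, and 3 from wild-type (WT) mice. The labels give the strain C57BL/6 for all 6 libraries, name no other allele or treatment in either group, and do not say whether a library is 1 animal or a pool.

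In the embryonic cortex, radial glia express the basic helix-loop-helix (bHLH) factors Neurog1 and Neurog2, which dimerise with E proteins, bind E-box letters in DNA and switch on Notch ligands and neuronal genes. Daughter cells that pass through the intermediate progenitor state express Eomes (also called Tbr2) and Insm1, divide again, and give rise to glutamatergic projection neurons. Neurod1 follows as the cells leave the cycle, and Neurod2 and Neurod6 stay on in the postmitotic excitatory neurons. Id and Hes proteins restrain this sequence, and Hes6 counters Hes1.

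Total counts per library ran from 67378231 to 87811574. Npas3 itself stood at 14.96, 14.13 and 8.61 CPM (counts scaled to a common library size) in the Npas3+/- libraries, all below the 23.4, 28.4 and 25.7 CPM of the WT libraries. Its log2 fold change of -1.04 (SE 0.20) missed the threshold of 0.05 in edgeR (adjusted p = 0.27), whereas DESeq2 called it (adjusted p = 7.84e-05). The tissue label was checked against projection neuron genes. Tbr1 ran from 252 to 303 CPM in the Npas3+/- libraries and from 252 to 278 CPM in WT. Hoxa2 and Hoxb2, which mark the hindbrain, had at most 3 counts in any library. They were picked after their values were seen, from a list of 11 thalamus and hindbrain genes. Of that list, 6 genes passed the filter on low counts, and Rora ran from 11.0 to 20.0 CPM over the 6 libraries. The check is therefore partial. Npas3+/- replicate 2 alone had high Xist (3667 CPM, with a maximum of 2.02 CPM elsewhere), so the groups are not matched for sex. Striatal genes were present at uneven levels, as given below.

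None of the members was called. Of the 9 genes, 8 passed the filter on low counts and 0 of these passed an adjusted p of 0.05 in edgeR's quasi-likelihood test, against 0.0377% of all 21244 genes tested. DESeq2 also called 0 of them, against 2.77% of the genes for which it gave an adjusted p. At an unadjusted p under 0.05 there was 1 member, Neurod6, against 12.1% of all genes. In 0 of the 8 did the groups separate without overlap, against 18.9% of all genes. The log2 fold change was above 0 for 5 members and below 0 for 3, where 48.2% of all genes lay above 0. The median was 0.11 over the 8 members and -0.01 over all genes tested.

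**Figure D1:**
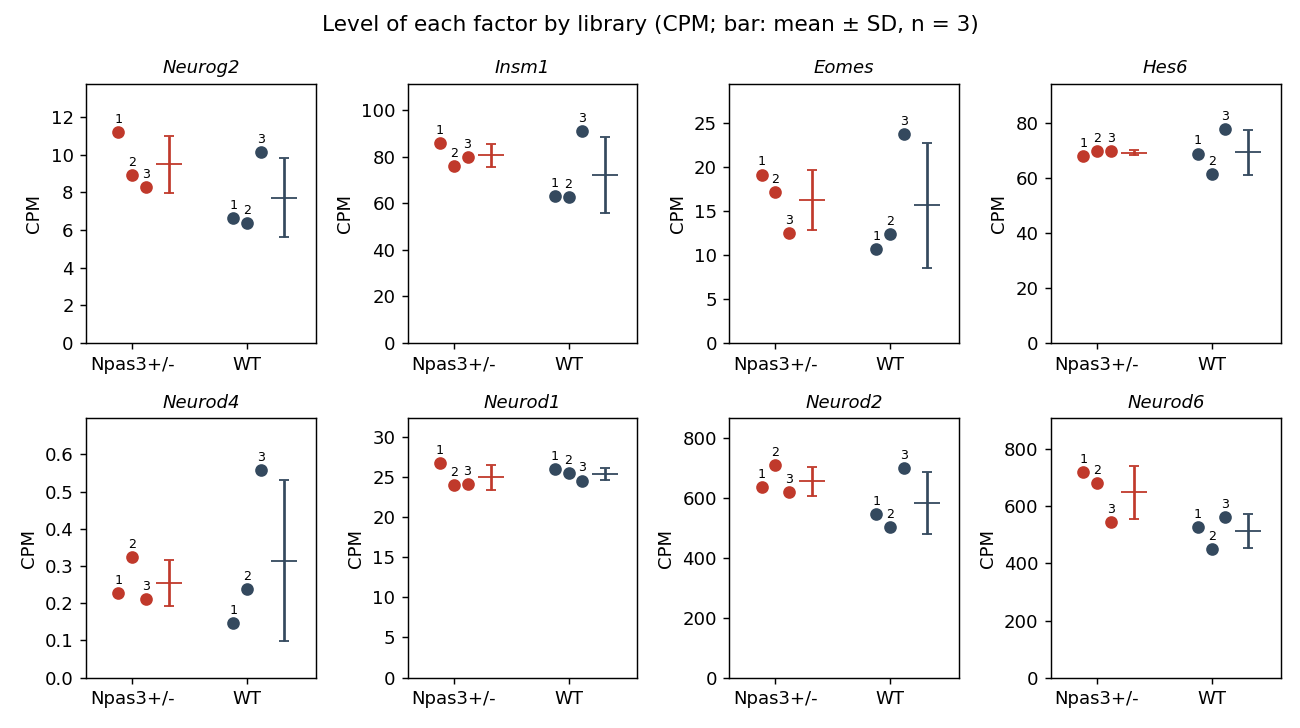
Level of the 8 tested factors in each library, in CPM on a linear axis from 0. Points are libraries with their replicate number, and the bar beside them is the mean ± SD (n = 3). The groups overlap in every panel, and WT replicate 3 is the highest WT library in all but Neurod1.

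The letters upstream of 3 members are shown because E-boxes are the sites through which these bHLH factors act on each other's genes. RefSeq windows (GRCm38.p6) of the 250 bases before the start were matched for 8 of the 9 genes, all but Insm1, in 10 windows. Hes6 and Neurod4 had 2 windows each, and those of Neurod4 overlapped. The E-box letters CANNTG, which are their own reverse complement, occurred in 5 of the 10, against 66.2% of 32851 promoter windows of the same length. Within these letters, CATATG, a form favoured by Neurog and Neurod factors, occurred in 2 of the 10 windows, against 3.46% of all. The related CAGATG, searched on both strands, occurred in 1, against 14.4%. The N-box letters CACNAG, which Hes repressors can bind, occurred in 5 of the 10 windows on either strand, against 36.7% of all. They can share letters with an E-box. Of these 5 windows, 2 were the overlapping windows of Neurod4, which hold 1 N-box in common.

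The window of Neurod2 held 3 E-boxes. Of these CAGATG began 118 bases before the start, CATGTG began 51 bases before it and CATATG began 17 bases before it. That of Neurod1 held CATATG 242 bases before the start. These distances count from the RefSeq start. For Neurod1 and Neurod2 that start lies inside the annotated gene, so the stretch printed below ends before it. The windows of Eomes, Neurog1, Neurog2 and Neurod4 held no CANNTG. Bases inside the annotated gene are left out of the stretches printed below, which lie at chr11:98329649-98329895 (minus strand) for Neurod2, chr2:79456752-79456886 (minus strand) for Neurod1 and chr9:118477939-118478188 (plus strand) for Eomes. Capitals mark CANNTG.
Neurod2: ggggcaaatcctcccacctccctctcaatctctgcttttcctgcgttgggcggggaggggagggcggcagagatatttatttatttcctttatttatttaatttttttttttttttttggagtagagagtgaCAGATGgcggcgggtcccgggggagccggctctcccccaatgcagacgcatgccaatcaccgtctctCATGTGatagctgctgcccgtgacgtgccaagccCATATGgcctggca
Neurod1: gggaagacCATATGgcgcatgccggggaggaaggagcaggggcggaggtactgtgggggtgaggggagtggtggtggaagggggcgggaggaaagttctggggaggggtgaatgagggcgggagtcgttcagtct
Eomes: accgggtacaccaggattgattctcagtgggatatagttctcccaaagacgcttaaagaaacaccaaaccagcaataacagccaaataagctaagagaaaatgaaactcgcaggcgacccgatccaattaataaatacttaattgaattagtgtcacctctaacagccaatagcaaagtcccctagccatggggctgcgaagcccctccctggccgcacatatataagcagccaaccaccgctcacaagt
A match of letters does not show a bound site, and these RNA counts do not measure binding.

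The proneural factors come first in the sequence. Neurog2 (ENSMUSG00000027967, mm10 chr3:127633135-127635631) gives cortical progenitors a glutamatergic neuronal fate. It stood at 11.2, 8.93 and 8.30 CPM in the Npas3+/- libraries, from 984, 687 and 627 counts, against 6.64, 6.36 and 10.1 CPM in WT, from 449, 534 and 726 counts. All 3 Npas3+/- libraries lay above WT replicates 1 and 2, and WT replicate 3 lay above Npas3+/- replicates 2 and 3. The means were 9.48 ± 1.52 CPM in the Npas3+/- group and 7.70 ± 2.09 CPM in WT (SD, n = 3 each). The difference on the log2 scale was 0.30 (SE 0.21, 95% interval -0.20 to 0.80) with an edgeR adjusted p of 0.632, so a level up to 1.74-fold higher or 0.872 of WT lies within the interval.

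Neurog1 (chr13:56250478-56252163), its close relative, had 0, 5 and 0 counts in the Npas3+/- libraries and 0, 0 and 2 counts in WT. It did not pass the filter and no fold change is given. At these depths a count of this size does not separate a few expressing cells from none.

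Eomes and Insm1 mark the intermediate progenitors. Eomes (ENSMUSG00000032446, chr9:118478212-118486132), the T-box factor that defines these cells in the cortex, stood at 19.1, 17.1 and 12.5 CPM in the Npas3+/- libraries, against 10.7, 12.3 and 23.8 CPM in WT. Npas3+/- replicate 3 lay beside WT replicates 1 and 2, and WT replicate 3 was the highest of the 6. The means were 16.2 ± 3.41 CPM in the Npas3+/- group and 15.6 ± 7.12 CPM in WT (SD, n = 3 each). As a log2 fold change this was 0.06 (SE 0.31, edgeR adjusted p = 0.964). Its 95% interval, -0.66 to 0.77, holds levels from 0.634 to 1.71 times WT, so a moderate difference in either direction was not detectable with this spread. Its sign rested on single libraries, with 0.50 without WT replicate 3 and -0.08, -0.15 and -0.09 without Npas3+/- replicate 1, WT replicate 1 and WT replicate 2.

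Insm1 (ENSMUSG00000068154, chr2:146221921-146225020), a zinc finger factor that promotes the formation of basal progenitors, stood at 85.7, 76.2 and 79.8 CPM in the Npas3+/- libraries, against 63.1, 62.5 and 91.1 CPM in WT. The 3 Npas3+/- values fell between the lower pair of WT libraries and WT replicate 3. The means were 80.6 ± 4.82 CPM in the Npas3+/- group and 72.2 ± 16.3 CPM in WT (SD, n = 3 each). The fitted log2 fold change was 0.16 (SE 0.15, 95% interval -0.18 to 0.50, edgeR adjusted p = 0.722).

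Hes6 (ENSMUSG00000067071, chr1:91411483-91414038), a bHLH protein that promotes differentiation by antagonising Hes1, varied little. It stood at 68.1, 69.7 and 69.7 CPM in the Npas3+/- libraries, against 68.9, 61.5 and 77.8 CPM in WT. The 3 Npas3+/- values lay inside the range of WT, and the coefficient of variation was 1.32% in Npas3+/- and 11.7% in WT. Between genotypes the log2 fold change was -0.01 (SE 0.09, edgeR adjusted p = 0.988), and the 95% interval in fold units ran from 0.863 to 1.15. The sign changed among the fits with 1 library left out (-0.084 to 0.088).

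Neurod4, also known as Math3, and Neurod1 act as cells commit to the neuronal fate. Neurod4 (chr10:130268152-130280240) was barely counted, with 20, 25 and 16 counts in the Npas3+/- libraries and 10, 20 and 40 counts in WT. WT replicate 3 held the highest level, 0.557 CPM, and WT replicate 1 the lowest, 0.148 CPM. The log2 fold change of -0.30 had an SE of 0.63 (edgeR adjusted p = 0.895), and without WT replicate 3 it was 0.40. DESeq2 gave no adjusted p for it.

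Neurod1 (ENSMUSG00000034701, chr2:79452521-79456751), which Neurog2 and Eomes precede in the cortical sequence, varied least. It stood at 26.7, 24.0 and 24.1 CPM in the Npas3+/- libraries, against 26.0, 25.5 and 24.5 CPM in WT. The highest library was 1.11 times the lowest, where the same ratio was 2.22 for Eomes and 1.76 for Neurog2. Its log2 fold change was -0.02 (SE 0.08, edgeR adjusted p = 0.944, 95% interval -0.22 to 0.17). It was 0.037 with a correction for GC content, the opposite sign.

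Neurod2 and Neurod6 are the factors of postmitotic excitatory neurons. Neurod2 (ENSMUSG00000038255, chr11:98325415-98329648), which takes part in the maturation and connectivity of these neurons, stood at 636, 708 and 617 CPM in the Npas3+/- libraries, against 545, 503 and 698 CPM in WT. All 3 Npas3+/- libraries lay above WT replicates 1 and 2, and WT replicate 3 lay above Npas3+/- replicates 1 and 3. Neurod2 had a log2 fold change of 0.17 (SE 0.12, 95% interval -0.11 to 0.45, edgeR adjusted p = 0.631).

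Neurod6 (ENSMUSG00000037984, chr6:55677822-55681263), also known as Nex or Math2 and used to mark dorsal telencephalic excitatory neurons, had the smallest p of the members. It stood at 721, 682 and 545 CPM in the Npas3+/- libraries, against 527, 450 and 564 CPM in WT. Npas3+/- replicates 1 and 2 lay above every WT library, and Npas3+/- replicate 3 lay between WT replicates 1 and 3. The means were 649 ± 92.5 CPM in the Npas3+/- group and 514 ± 58.2 CPM in WT (SD, n = 3 each). Its log2 fold change was 0.34 (SE 0.12, 95% interval 0.06 to 0.62), which is 1.26-fold. Adjusted over all genes it was not called, with adjusted p = 0.343 in edgeR and 0.108 in DESeq2, and over the alternatives the adjusted p ran from 0.108 to 0.665.

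**Figure D2:**
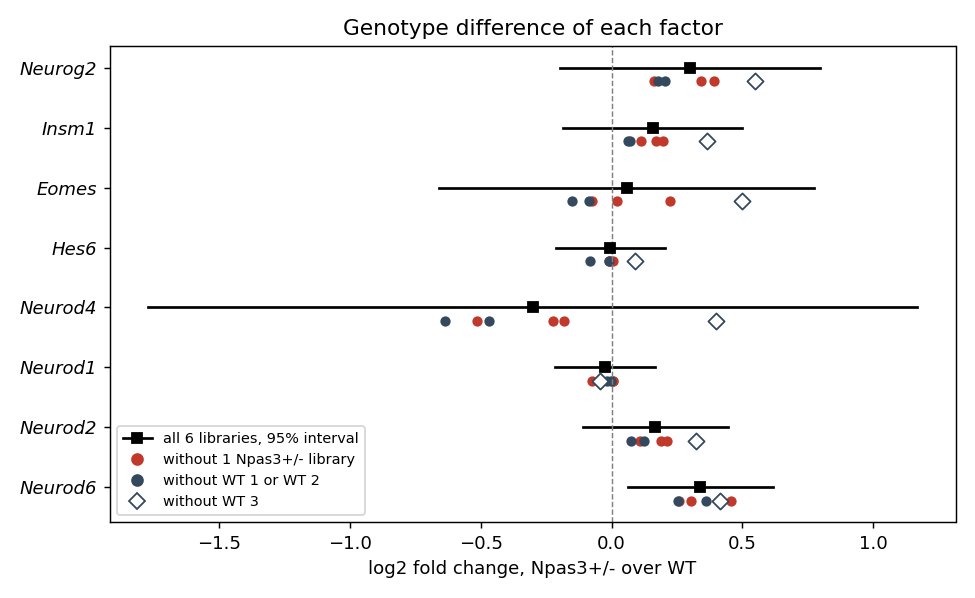
Log2 fold change of Npas3+/- over WT for the 8 tested factors, with squares and lines for the value and 95% interval over all 6 libraries and smaller symbols for fits with 1 library left out. Neurod1 and Hes6 have the narrowest intervals, and for Eomes the value without WT replicate 3 (0.50) stands apart from those without any other library (-0.15 to 0.22).

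Ordered by level per length (CPM per kilobase of annotated exon), the members stood far apart. Neurod6 was highest, at 302 ± 43.0 CPM per kilobase in the Npas3+/- group and 239 ± 27.1 in WT, followed by Neurod2 at 208 ± 15.4 in Npas3+/- and 185 ± 32.6 in WT (SD, n = 3 each). The ranges of this pair over the 6 libraries overlapped, although Neurod6 was the higher of the pair within each of the 6 libraries. Hes6 followed at 38.3 in Npas3+/- and 38.4 in WT, Insm1 at 26.0 and 23.3, and Neurod1 at 9.13 and 9.29 CPM per kilobase in Npas3+/- and WT. Eomes stood at 3.91 in Npas3+/- and 3.75 in WT, and Neurog2 at 4.26 in Npas3+/- and 3.46 in WT. The order of Eomes and Neurog2 was not settled, since Eomes was above Neurog2 in 3 of the 6 libraries. Neurod4 was below 0.17 CPM per kilobase in every library, and Neurog1 was lowest. Between each of the other neighbours the ranges over the 6 libraries did not overlap.

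The members differed among themselves in how they varied from library to library. WT replicate 3 was above the other 2 WT libraries in 7 of the 8 tested members, and 33.7% of all genes tested showed that order. This count was made after the values were seen. On the log2 scale Eomes deviated from its 6-library mean by 0.32, 0.16 and -0.29 in the Npas3+/- libraries and by -0.51, -0.31 and 0.63 in the WT libraries. Neurog2 deviated by 0.41, 0.09 and -0.02 in the Npas3+/- libraries and by -0.34, -0.40 and 0.27 in WT. Likeness was measured as the root-mean-square distance between such profiles over the 6 libraries, which is a description of 6 points. The closest member pair was Insm1 and Neurod2, at 0.11. The member closest to Eomes was Neurog2, at 0.21, and the farthest was Neurod1, at 0.42.

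Among 10413 other genes with a mean of at least 10 CPM, those with the profile most like Eomes were Srp14 (distance 0.14), which encodes a subunit of the signal recognition particle, Gsn (0.15), which encodes the actin-severing protein gelsolin, and Phyhd1 (0.18). The distances are set against a root-mean-square deviation of 0.40 for Eomes itself. Srp14 stood at 67.8, 68.7 and 52.5 CPM in the Npas3+/- libraries, against 45.4, 44.0 and 76.8 CPM in WT. None of the 3 genes was called (edgeR adjusted p = 0.787, 0.774 and 0.806).

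Genes of the striatal list varied across the same libraries. The 19 genes of the ganglionic eminence and striatum list, a neighbouring territory of the forebrain, summed to 353, 384 and 500 CPM in the Npas3+/- libraries, against 540, 580 and 435 CPM in WT. Npas3+/- replicates 1 and 2 and WT replicate 3 were the 3 lowest libraries on this sum and the 3 highest for Eomes. Tac1, a neuropeptide precursor gene of striatal neurons, had 55, 77 and 247 counts in the Npas3+/- libraries, against 1087, 1775 and 124 counts in WT. Other genes of the list did not follow Tac1. Drd1 stood at 12.5, 19.3 and 16.5 CPM in the Npas3+/- libraries, against 18.8, 17.5 and 11.2 CPM in WT (log2 fold change 0.02). Ppp1r1b had a log2 fold change of -0.19. The list also holds genes of the ganglionic eminence such as Dlx1 and Lhx6, so its sum does not measure striatum alone. Of the 19 genes, 17 had negative log2 fold changes and 0 were called, and none was at 0 counts throughout. The part of this uneven content in the levels of Eomes, Neurog2 and Neurod6 was not tested. In bulk samples, fewer cells of a type and less RNA per cell cannot be told apart.

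**Figure D3:**
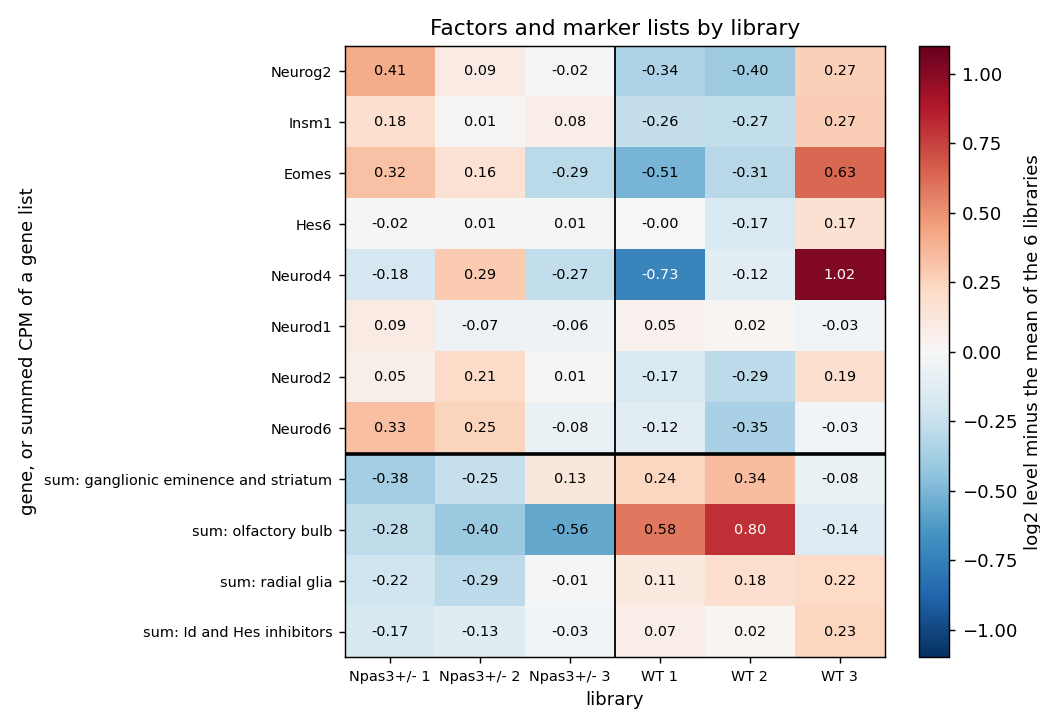
Log2 level minus the mean of the 6 libraries, for the 8 tested factors (log2 CPM, above the line) and for the summed CPM of 4 marker lists (below it), with Npas3+/- libraries left of WT. Eomes is highest in WT replicate 3 (0.63) and Npas3+/- replicate 1 (0.32), where the striatal sum is at -0.08 and -0.38.

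Eomes is also expressed in mitral and tufted cells of the olfactory bulb and in progenitors of the dentate gyrus. Tbx21, which marks mitral and tufted cells, was near 0, from 0.102 to 0.199 CPM in the Npas3+/- libraries and from 0.125 to 0.488 CPM in WT. The olfactory bulb list summed to 21.5 to 26.2 CPM in the Npas3+/- libraries and 28.8 to 55.3 CPM in WT over its 8 genes, and the 6 tested were all below 0 in log2 fold change with 0 called. Pbx3 (-1.21) and Cdhr1 (-1.26) had the smallest p in it. Pbx3 alone stood at 9.14, 7.46 and 14.7 CPM in the Npas3+/- libraries, against 26.6, 32.1 and 13.7 CPM in WT. This gene therefore weighs heavily in the sum. The hippocampal and dentate list summed to 319 to 378 CPM in Npas3+/- and 342 to 365 CPM in WT. Prox1, the dentate granule cell factor, stood at 20.8 ± 2.07 CPM in Npas3+/- and 22.5 ± 1.66 CPM in WT (SD, n = 3 each), and 0 of the 9 genes were called (Dsp at -0.81 and Wfs1 at -0.28 had the smallest p).

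The partners and targets of the factors, and markers of cell types and regions, were read from lists. These were 143 genes in 13 lists, of which 130 passed the filter and 0 were called in edgeR, against 0.0377% of all genes tested. An unadjusted p under 0.05 was found for 28 of the 130, against 12.1% of all genes. DESeq2 called 5 of the 130, Olig2, Vim, Fabp7, Ptprz1 and Reln, against 2.77% of all genes with an adjusted p. Of the 28 genes, 8 were in the radial glia list. In the list of proneural targets and in that of E proteins, 0 genes had an unadjusted p under 0.05 and DESeq2 called 0. Genes induced by proneural factors or enriched in intermediate progenitors had a median log2 fold change of 0.02 over 18 genes, 10 above 0 and 8 below. The Notch ligand gene Dll1, a direct target of Neurog2, stood at 23.9, 21.8 and 23.0 CPM in the Npas3+/- libraries, against 23.0, 20.5 and 22.9 CPM in WT (log2 fold change 0.05, edgeR adjusted p = 0.881). The smallest p in the list were those of the vesicular glutamate transporter gene Slc17a6 (-0.22), the somatostatin receptor gene Sstr2 (-0.31) and the corepressor gene Cbfa2t3 (-0.23), none past the threshold (adjusted p = 0.443, 0.471 and 0.556).

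Genes that restrain the proneural factors lay mostly below 0. Of the 11 genes of this list, which holds Id, Hes and Hey genes with Bhlhe40 and Bhlhe41, 10 had negative log2 fold changes. The median was -0.23, and 0 were called in edgeR or DESeq2. The exception was Bhlhe40, a bHLH repressor, at 0.33 (SE 0.13, edgeR adjusted p = 0.373). Hes5, a Notch target that represses proneural genes, stood at 9.25, 11.4 and 17.2 CPM in the Npas3+/- libraries, against 20.5, 18.9 and 18.6 CPM in WT, with no overlap (log2 fold change -0.62, SE 0.21, edgeR adjusted p = 0.338). Hey1 (-0.48) and Hey2 (-0.71, at only 1.21 to 2.81 CPM) also did not overlap between groups, which 9.18% of all genes did in that direction. Counting both directions, 4 of the 11 genes did not overlap, against 18.9% of all genes. Hes1 stood at 3.77, 3.81 and 7.36 CPM in the Npas3+/- libraries, against 5.63, 5.04 and 4.91 CPM in WT.

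Genes of radial glia also lay mostly below 0. Of the 15 radial glia genes 14 had negative log2 fold changes, with a median of -0.31 and 0 called in edgeR, and Vim (-0.79), Fabp7 (-0.53) and Ptprz1 (-0.28) had the smallest p. Hes1 and Hes5 belong to both lists. Summed, the list ran from 1399 to 1701 CPM in Npas3+/- and from 1847 to 1997 CPM in WT. The ratio of Eomes to Pax6, a radial glia factor, was 0.905, 0.976 and 0.590 in the Npas3+/- libraries, against 0.420, 0.544 and 0.873 in WT, so the groups overlapped. The ratio of Neurog2 to Hes5 was 1.21, 0.786 and 0.482 in the Npas3+/- libraries, against 0.324, 0.336 and 0.545 in WT, and also overlapped. These ratios were chosen after the values were seen and were not tested, since an exact permutation p (two-sided) cannot be below 0.1 with 3 libraries a group.

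**Figure D4:**
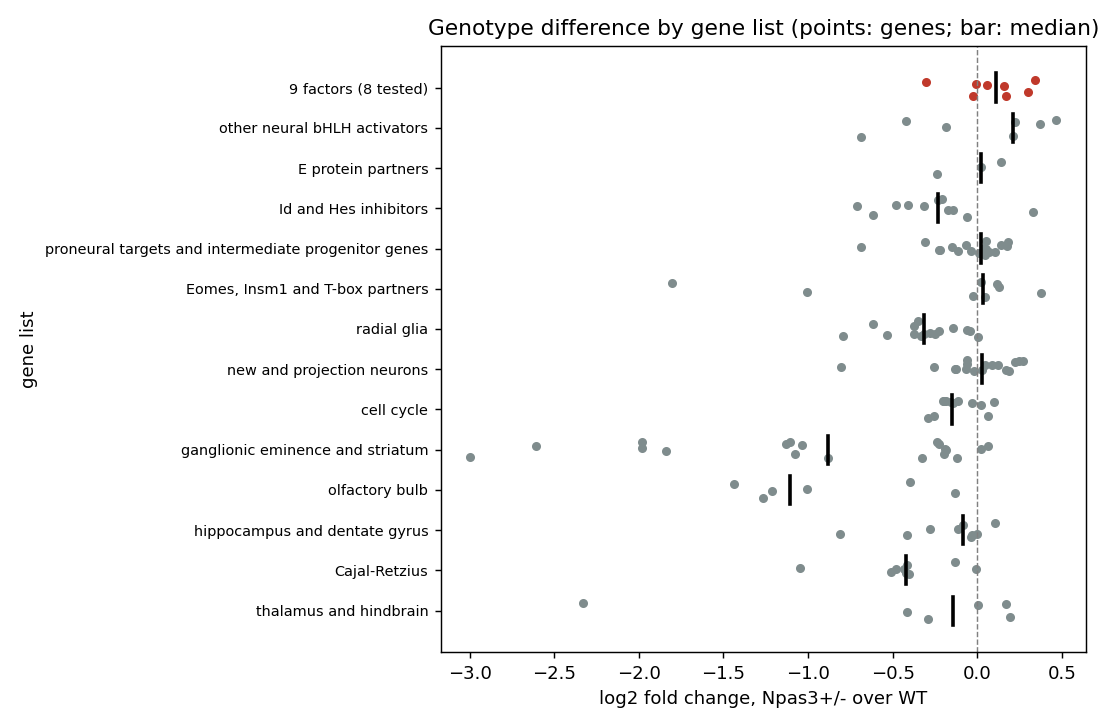
Log2 fold change of Npas3+/- over WT for the 8 tested factors (top) and for the tested genes of 13 lists, 1 point a gene with the median as a bar. The median is 0.11 for the factors, -0.31 for radial glia and -0.88 for the ganglionic eminence and striatum.

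Other neural bHLH activators had a median log2 fold change of 0.21 over the 7 of 12 tested. Olig2, which specifies oligodendrocyte precursors, stood at 45.5 ± 3.47 CPM in the Npas3+/- group and 35.1 ± 3.41 CPM in WT (SD, n = 3 each), without overlap (log2 fold change 0.37, SE 0.10, edgeR adjusted p = 0.276, DESeq2 adjusted p = 0.038). Olig1 (0.21) was also higher in each Npas3+/- library than in any WT library, as were 9.7% of all genes, and Bhlhe22, a projection neuron factor, stood at 0.22, none called in edgeR. The untested members were Neurog3, Atoh1, Bhlhe23, Olig3 and Ptf1a. Among the E proteins Tcf3 stood at 0.14, Tcf4 at 0.02 and Tcf12 at -0.24. Among relatives and partners of Eomes and Insm1 the median was 0.03 over 8 genes, with Rcor1, a corepressor that Insm1 recruits, at 0.37 (SE 0.12, edgeR adjusted p = 0.323), Kdm1a, a histone demethylase, at 0.11 and Insm2 at -1.81 from less than 1 CPM.

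The lists of later neurons and dividing cells had no gene called in edgeR. The list of new and projection neurons had a median of 0.03 over 17 genes, with Dcx, a microtubule protein of migrating neurons, at -0.12, Tubb3 at 0.12 and Bhlhe22 as above, and 0 called. Over the 12 cell cycle genes the median was -0.15, 9 of them below 0, with Cdk1 (-0.29), Ccnd2 (-0.20) and Mcm3 (-0.20) at the smallest p and 0 called. The Cajal-Retzius list had all 9 genes below 0 with a median of -0.42 and 0 called in edgeR, while DESeq2 called Reln (adjusted p = 0.0134). The smallest p in it were those of Reln (-0.48), Nhlh2 (-0.42) and Lhx1 (-1.05). The thalamus and hindbrain list had a median of -0.14 over the 6 of 11 tested, with Pax2 (-2.33), Rora (-0.29) and Lhx9 (-0.41) at the smallest p and 0 called, and in the striatal list Dlx6 (-1.08) and Adora2a (-1.13) followed Tac1 (-3.00).

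Little of the annotated sequence of the members was shared with other genes. Of 50-base windows of the annotated transcripts, 0 were shared with other genes for Neurog1, Neurog2, Neurod2, Neurod4, Neurod6 and Hes6. Insm1 shared 24 of 3051 windows, with 82 other genes in all, and Eomes 87 of 4150, with 124 other genes in all. Neurod1 shared 259 of 2680 windows, with the overlapping genes Cerkl and Gm26755, and Eomes overlaps the antisense gene Gm33460 by 118 exonic bases. Cerkl had 11 to 62 counts per library, Gm26755 at most 8 and Gm33460 at most 17, against at least 1759 for Neurod1 and 724 for Eomes. Counts of the other genes that share windows with Eomes and Insm1 are not given here.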

How the data were processed

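The deposited table holds unnormalized counts of reads per gene, 1 column a library. The submitters' processing notes name mm10, featureCounts, HISAT2 2.1.0 and Trimmomatic 0.3.8; the use of strand and of reads with several matches is not given in the sources used here. Columns named NP were taken as Npas3+/-, the only genotype beside WT. Gene identifiers were matched without version to GENCODE M21 (53274 of 53379). Counts were fitted with edgeR 4.0.16 in R 4.3.3: filterByExpr on genotype (21244 genes), TMM scaling, a quasi-likelihood test of genotype, and Benjamini-Hochberg adjustment over all genes with a threshold of 0.05. SE is the log2 fold change over the square root of F, and 95% intervals use its degrees of freedom. CPM uses the TMM-scaled library sizes; log2 CPM has a prior count of 2. Fold changes are Npas3+/- over WT. The labels do not say that replicates are separate animals, so p-values measure the spread between these samples.

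The members and lists were chosen with earlier results of these data known. The genes named were the members, Npas3, in each list any gene past the threshold and the 3 with the smallest p, and the 3 genes most like Eomes; Hes1, Dll1, Pax6, Tbr1, Bhlhe40, Xist, Hoxa2 and Hoxb2 were added after their values were seen. Alternatives were RLE and upper-quartile scaling, other low-count filters, DESeq2 1.42.0, limma-voom (limma 3.58.1), the replicate number as a block, each library left out in turn and, added after seeing the data, a correction for transcript GC content (lowess span 0.4 per library, as offsets). The fits were tested on simulated counts, with changes given to genes drawn at random from those tested. There edgeR called 19.4% of the genes given a 1.5-fold change, 40.3% at 2-fold and 75.8% at 4-fold. A change of 1.5-fold or 2-fold could thus often go uncalled in genes so drawn. The drawn genes were not matched to the level of the members. The simulated noise was independent between genes, without shifts that many genes of a library share. These rates are therefore not rates for the members. Promoter letters are from RefSeq.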

Additional observations from a re-analysis of the deposited data

How the results depend on the processing

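Under the 15 alternatives 0 members were called. Of 119 values of the 8 tested members, 106 kept their direction and 13 changed sign, all of them for Eomes, Hes6, Neurod1 or Neurod4 and without a call. With 1 library left out, the log2 fold change ran from -0.15 (without WT replicate 1) to 0.50 (without WT replicate 3) for Eomes, from -0.084 to 0.088 for Hes6, from -0.075 to 0.0052 for Neurod1 and from -0.64 to 0.40 for Neurod4. Neurog2 (0.16 to 0.55), Insm1 (0.06 to 0.36), Neurod2 (0.07 to 0.32) and Neurod6 (0.25 to 0.46) stayed above 0. Hes6 was at 0.0052 with limma-voom, and Neurod1 at 0.037 with the GC correction. With the GC correction and the replicate block together, Neurod1 was at 0.035 and Neurod4 at 0.011. With the replicate block alone Hes6 was at 0.0012. Over all genes edgeR called 8. DESeq2 called 425, 5 of them in the lists. Leaving out 1 library gave 7 to 16 genes, the most without WT replicate 1. The replicate block gave 3, with or without the GC correction. Deviations of libraries with the same number correlated at 0.037, -0.030 and -0.088 across genes, so the numbers were not taken as pairs. The causes were not tested. Neurod4 was not fitted with the filter of 1 CPM in 3 libraries. Neurog1 entered only the fits without the low-count filter and with DESeq2, from 7 counts in all. Neurod4 had at most 40 counts in a library. The coefficient of variation over the WT libraries was 68.4% for Neurod4 and 45.6% for Eomes.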

Other observations

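Tcf12, whose E protein product dimerises with the proneural factors, varied widely within each genotype. It stood at 50.5, 95.5 and 63.6 CPM in the Npas3+/- libraries, against 79.1, 63.8 and 104 CPM in WT. The gene was singled out after its values were seen and was not called in edgeR.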
